A study of Mus musculus with 8 samples.

Results

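The mRNAs of vitamin B12 (cobalamin) uptake, transport and use were compared between livers without and livers with thioredoxin reductase 1 in hepatocytes. The set holds 10 genes out of 18193 tested, read by 22 of 45037 probe sets. Amn was chosen by its difference between these same livers, so its difference, and whether it met a threshold in a given fit, are descriptions and not evidence. The other 9 genes, Cubn, Tcn2, Cd320, Mmachc, Mmaa, Mmab, Mmut, Mtr and Mtrr, were added for their place in B12 handling. Of the 10 genes, 4 have 1 probe set and 6 have several, and a gene's value is the mean log2 ratio of its probe sets. All 10 were tested, since no filter on low values was applied.

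Vitamin B12 from food is bound by intrinsic factor in the gut and enters cells of the ileum through a receptor made of cubilin and amnionless, which also retrieves filtered proteins in the kidney tubule. In blood the vitamin is carried to tissues by transcobalamin and taken into cells by its receptor CD320. Inside the cell it is stripped of its upper ligand and delivered to methionine synthase in the cytosol and to methylmalonyl-CoA mutase in mitochondria, and the liver is the main store of the vitamin.

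Total liver RNA came from 4 txnrd1 cond/- albCre1 mice (animals 69, 72, 73 and 81) and 4 txnrd1 cond/+ albCre0 mice (animals 70, 71, 80 and 82), all young males, labelled adult, that had been housed singly for 10 days and were killed at the same hour of the afternoon without other treatment. The albCre transgene expresses Cre recombinase in hepatocytes, where it turns the conditional txnrd1 allele (cond) into a null, so hepatocytes of the txnrd1 cond/- albCre1 mice should be txnrd1-/- while other cells of those livers remain txnrd1 cond/-. These livers are called txnrd1-/- below. The txnrd1 cond/+ livers served as controls and had no Cre, so loss of Txnrd1 from hepatocytes, the Cre transgene and the null allele carried by all other cells cannot be told apart. Each animal was measured once, on its own Affymetrix mouse expression array, and the livers come from separate animals.

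The deposited values are ratios of each probe set to about its own median over the 8 arrays. They carry no signal level, so genes cannot be ranked by abundance, and whether a probe set was above background in liver cannot be read from them. Array medians of the ratio lay between 0.997 and 0.999. The 3 probe sets of Txnrd1, the targeted gene, did not share a direction. The ratio of 1421529_a_at averaged 1.43 ± 0.405 in txnrd1-/- livers and 0.67 ± 0.201 in txnrd1 cond/+ livers, that of 1424486_a_at 0.748 ± 0.174 and 1.21 ± 0.238, and that of 1424487_x_at 0.89 ± 0.0965 and 1.18 ± 0.125 (SD, n = 4 each), with unadjusted p of 0.00154, 0.00421 and 0.0105 in that order and an adjusted p of 1.0 each in limma over all probe sets. The genotypes did not overlap at the first and the last of these sets. Where they lie relative to the deleted segment could not be read from the sources used here, so they do not check the labels. By assays other than these arrays, the paper reported conversion of the conditional allele in adult txnrd1 cond/- albCre1 livers. It also reported a strong reduction of functional Txnrd1 mRNA and of the protein there. In bulk RNA, more cells that hold an mRNA and more of the mRNA per cell cannot be told apart.

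Amn encodes amnionless, the membrane-anchored partner that brings cubilin to the cell surface. Its single probe set, 1417920_at, had ratios of 1.71, 1.25, 1.97 and 1.91 in the txnrd1-/- livers of animals 69, 72, 73 and 81, against 0.606, 0.512, 0.747 and 0.614 in the txnrd1 cond/+ livers of animals 70, 71, 80 and 82. Every txnrd1-/- liver was above every txnrd1 cond/+ liver, and the lowest of the txnrd1-/- livers, animal 72, was still clear of the highest control, animal 80. The ratio averaged 1.71 ± 0.324 in txnrd1-/- livers and 0.62 ± 0.0967 in txnrd1 cond/+ livers (SD, n = 4 each). The difference in log2 ratio was 1.46 with a standard error of 0.168 and a 95% interval of 1.08 to 1.83, or 2.74-fold. By this difference Amn stood 16th among the 18193 genes. No other tested probe set carries the symbol Amn alone, so the value rests on this one. RefSeq places a long noncoding RNA gene, Gm51960, over Amn, and its share in the signal was not tested.

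The promoter of Amn is shown because it is the one member whose mRNA stood apart, together with the promoters of Mmab and Mmachc, which held the same searched motif. The motif is the core of the antioxidant response element, TGACNNNGC on either strand. That element is bound by Nrf2, a transcription factor of oxidative and chemical stress responses that the study followed. Binding at the matches shown here was not tested. Each sequence is the 250 bases before the RefSeq start in GRCm38.p6, written 5′ to 3′ on the gene's strand, and capitals mark the match, which in each case lies on the opposite strand.
Amn promoter, chr12:111270846-111271095, plus strand: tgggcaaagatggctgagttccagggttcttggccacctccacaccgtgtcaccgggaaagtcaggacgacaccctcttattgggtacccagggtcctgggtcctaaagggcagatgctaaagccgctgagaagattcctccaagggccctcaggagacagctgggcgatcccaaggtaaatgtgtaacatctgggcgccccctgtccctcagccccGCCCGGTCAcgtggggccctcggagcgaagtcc
Mmab promoter, chr5:114444028-114444277, minus strand: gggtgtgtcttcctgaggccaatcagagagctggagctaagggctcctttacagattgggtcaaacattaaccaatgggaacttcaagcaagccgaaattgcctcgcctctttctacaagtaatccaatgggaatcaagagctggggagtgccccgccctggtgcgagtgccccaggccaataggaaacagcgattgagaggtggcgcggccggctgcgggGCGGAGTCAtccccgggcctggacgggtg
Mmachc promoter, chr4:116708386-116708635, minus strand: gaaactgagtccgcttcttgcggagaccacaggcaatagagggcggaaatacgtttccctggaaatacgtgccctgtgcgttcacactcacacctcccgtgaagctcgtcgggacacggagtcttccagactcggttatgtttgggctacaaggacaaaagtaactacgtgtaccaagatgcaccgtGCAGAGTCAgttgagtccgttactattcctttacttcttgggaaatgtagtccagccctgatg

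The match GCCCGGTCA in the Amn promoter lies 33 to 25 bases before the start. That in Mmab, GCGGAGTCA, lies 29 to 21 bases before the start, and that in Mmachc, GCAGAGTCA, 63 to 55 bases before it. The promoters of 8 of the 10 genes were in the RefSeq table, 11 promoters in all with 2 each for Cd320, Mmaa and Mtrr, and the entries for Tcn2 and Mmut were missing. The core was found in 3 of these 11 promoters, each of a different gene, and in 3338 of all 32851 promoters (10.2%). A longer form of the core, with a further fixed base A at its end, was also searched. The match in Mmachc met this longer form, and those in Amn and Mmab did not. Over all 32851 promoters 813 (2.47%) held the longer form. Among the 3 genes with a match to the core, the mRNA ratio of txnrd1-/- over txnrd1 cond/+ livers was 2.74-fold for Amn. It was 1.02-fold for Mmab (interval 0.805 to 1.28) and 0.887-fold for Mmachc (interval 0.7 to 1.12).

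Cubn encodes cubilin, the large extracellular receptor that amnionless anchors. Its gene value was 1.09, 1.19, 0.892 and 0.889 in the txnrd1-/- livers (animals in the order above, here and below) and 0.866, 0.946, 0.929 and 1.12 in the txnrd1 cond/+ livers. The groups overlapped, with the highest txnrd1-/- value in animal 72 and the highest control value in animal 82. The means were 1.01 ± 0.148 and 0.964 ± 0.107 (SD, n = 4 each), and the difference in log2 ratio was 0.07 with a 95% interval of -0.23 to 0.36. The 2 probe sets leaned opposite ways. For 1426990_at the log2 difference was -0.12 (interval -0.51 to 0.27). For 1452270_s_at it was 0.26 (interval -0.01 to 0.52), with ratios of 1.13, 1.15, 1.02 and 0.987 in txnrd1-/- livers and 0.842, 0.815, 0.916 and 1.03 in txnrd1 cond/+ livers. The mRNA of amnionless stood apart between the genotypes, and that of its receptor partner did not reach 1.5-fold at either probe set. The difference between the 2 mRNAs was not itself tested.

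**Figure D1:**
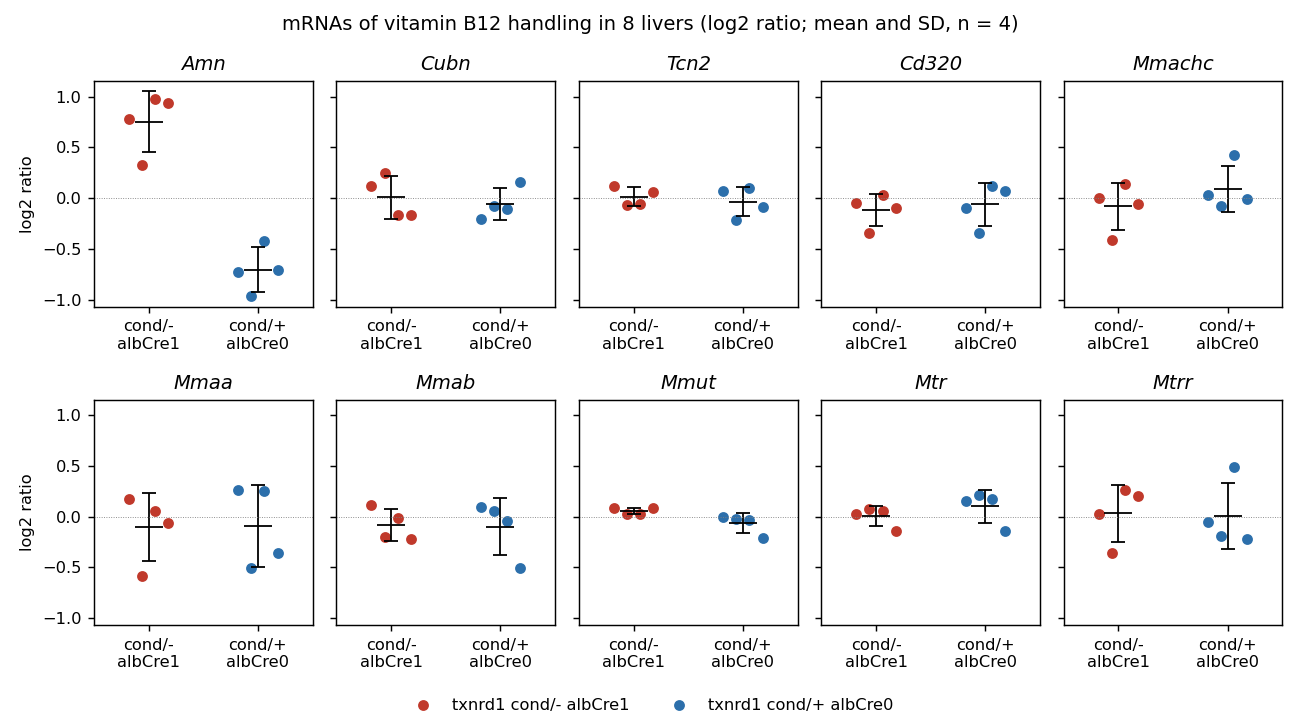
Log2 ratio of each of the 10 genes in each liver (vertical axis), with txnrd1 cond/- albCre1 livers in red on the left of each panel and txnrd1 cond/+ albCre0 livers in blue on the right. Bars give the mean and SD of 4 livers. The genotypes do not overlap in Amn, where their means differ by 1.46, or in Mmut, where their means differ by 0.12. The points of the other 8 genes overlap.

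The carriers of the vitamin from blood to cell did not pass the test. Tcn2 encodes transcobalamin, the plasma protein that delivers the vitamin to tissues. It had 1.09, 0.954, 0.963 and 1.04 in txnrd1-/- livers and 1.05, 0.86, 1.07 and 0.943 in txnrd1 cond/+ livers. All 8 livers lay within 1.27-fold of each other, and the log2 difference was 0.05 (interval -0.19 to 0.29). Its 5 probe sets gave log2 differences from -0.14 at 1447842_x_at to 0.24 at 1457825_x_at. The _x_at suffix marks sets with probes that may also bind other transcripts, and the set without it, 1448200_at, was at 0.0014.

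Cd320 encodes the receptor that takes up transcobalamin with its B12. Its ratios were 0.967, 0.789, 1.02 and 0.933 in txnrd1-/- livers and 0.936, 0.786, 1.09 and 1.05 in txnrd1 cond/+ livers. The log2 difference was -0.05 (interval -0.35 to 0.24), and in each genotype 1 liver, that of animal 72 and that of animal 71, was lowest. That low pair came from 1 of its 2 probe sets. At 1417100_at these livers had 0.531 (animal 72, txnrd1-/-) and 0.574 (animal 71, txnrd1 cond/+), while the other 6 lay between 0.934 and 1.25. At 1448588_at animals 72 and 71 had 1.17 and 1.08, at the high end of their own genotypes. Over the 8 livers the 2 probe sets had a Pearson correlation of -0.67 (a description over livers of both genotypes), so the gene value averages 2 readings that disagree in these livers.

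The genes that prepare the vitamin inside the cell were likewise within 1.5-fold. Mmachc encodes the cytosolic protein that removes the upper ligand of newly imported cobalamin. It had 1.0, 0.752, 1.1 and 0.963 in txnrd1-/- livers and 1.02, 0.947, 1.34 and 0.996 in txnrd1 cond/+ livers, means of 0.955 ± 0.147 and 1.08 ± 0.18 (SD, n = 4 each). This was the lowest of the 10 log2 differences, -0.17, with an interval of -0.51 to 0.17. Ccdc163, which RefSeq places over Mmachc on the other strand, had a log2 difference of 0.02.

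Mmaa encodes the mitochondrial GTPase that guards delivery of adenosylcobalamin to the mutase. It had 1.13, 0.666, 1.04 and 0.96 in txnrd1-/- livers and 1.2, 0.702, 1.19 and 0.778 in txnrd1 cond/+ livers. The livers of 1 genotype differed from each other far more than the genotypes did, since the 8 values spanned 1.8-fold and the log2 difference was -0.01. Its interval, -0.51 to 0.49, was the widest of the 10 genes.

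Mmab encodes the adenosyltransferase that makes adenosylcobalamin. It had 1.08, 0.873, 0.988 and 0.86 in txnrd1-/- livers and 1.07, 1.04, 0.968 and 0.702 in txnrd1 cond/+ livers. The log2 difference was 0.02 (interval -0.31 to 0.36), and the lowest value belonged to a control, animal 82. Of its 4 probe sets, 1452467_at varied most, with 1.13, 0.626, 1.1 and 0.86 in txnrd1-/- livers and 1.25, 0.892, 1.22 and 0.354 in txnrd1 cond/+ livers. The set 1435097_at followed it over the 8 livers (r = 0.94), whereas 1443498_at and 1452468_s_at had correlations of -0.49 and -0.35 with it.

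**Figure D2:**
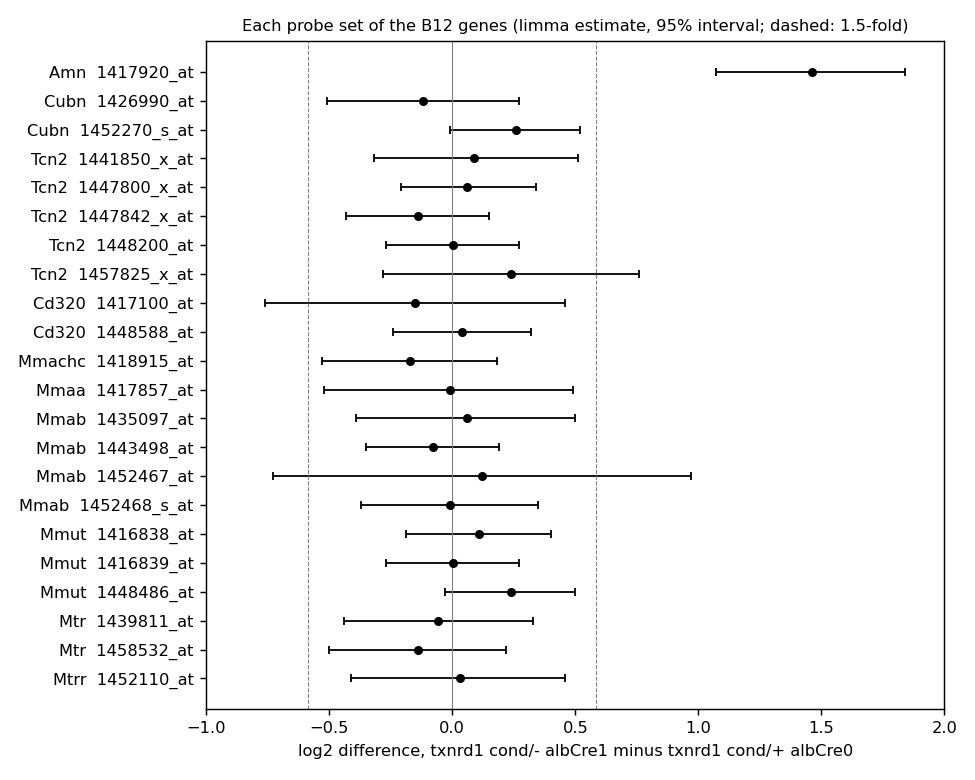
Log2 difference, txnrd1 cond/- albCre1 minus txnrd1 cond/+ albCre0, of each of the 22 probe sets (horizontal axis), as limma estimates with 95% intervals over 4 livers of each genotype. Dashed lines mark 1.5-fold. Amn lies at 1.46 and the other 21 probe sets between -0.17 and 0.26.

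The B12-dependent enzymes come last in the pathway. Mmut encodes methylmalonyl-CoA mutase, the mitochondrial enzyme that turns methylmalonyl-CoA into succinyl-CoA. Its gene value was 1.06, 1.02, 1.02 and 1.06 in txnrd1-/- livers and 1.0, 0.985, 0.98 and 0.867 in txnrd1 cond/+ livers. The genotypes did not overlap, as in 1.71% of all genes, but the step between them was small, with means of 1.04 ± 0.0232 and 0.959 ± 0.0623 (SD, n = 4 each), a log2 difference of 0.12 with an interval of -0.09 to 0.32, and an adjusted p of 1.0 in limma. At each of its 3 probe sets the genotypes overlapped. Their log2 differences were 0.11 at 1416838_at, 0.0018 at 1416839_at and 0.24 at 1448486_at (interval -0.03 to 0.5).

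Mtr encodes methionine synthase, the cytosolic enzyme that remethylates homocysteine with methylcobalamin. It had 1.02, 1.05, 1.04 and 0.906 in txnrd1-/- livers and 1.11, 1.16, 1.13 and 0.907 in txnrd1 cond/+ livers. The log2 difference was -0.1 (interval -0.35 to 0.15), and animals 81 and 82 were the lowest of their genotypes. A long noncoding RNA gene, Gm10336, overlaps Mtr in RefSeq.

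Mtrr encodes the reductase that restores methionine synthase after its cobalamin has been oxidized. It had 1.02, 0.778, 1.2 and 1.15 in txnrd1-/- livers and 0.966, 0.876, 1.4 and 0.859 in txnrd1 cond/+ livers. The highest liver was a control, animal 80, the lowest was txnrd1-/-, animal 72, and the log2 difference was 0.03 (interval -0.4 to 0.45). Fastkd3, which overlaps Mtrr on the other strand, stood at 0.07.

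A gene was called where its adjusted p in limma (Benjamini-Hochberg over all 18193 genes) was at most 0.05 and its difference at least 1.5-fold. By this rule 1 of the 10 genes, Amn, was called higher and 0 lower, where 15 of all genes (0.0824%) were called, 14 higher (0.077%) and 1 lower (0.0055%). Since this contrast chose Amn, nothing is read from that count. With the same fold and the p left unadjusted, Amn was again the 1 gene of the 10 to pass, where 119 of all genes (0.654%) passed. The study also set a minimum signal, which ratios cannot apply. Of the other 9 genes, 0 were called and 0 had an unadjusted p within 0.05 in limma, as 422 of all genes had (2.32%), and the same 0 of 9 was found with each gene alone and equal variances. Their adjusted p was 1.0 in each case. The 95% intervals of these 9 lay between -0.51 and 0.49 on the log2 scale, within 1.5-fold in either direction. The median log2 difference of the 9 was 0.022, against 0.003 over all genes. The genotypes did not overlap in 2 of the 10 genes, Amn and Mmut, as in 311 of all genes (1.71%), 205 of them higher in txnrd1-/- livers (1.13%). In both genes the txnrd1-/- livers were the higher ones. Among probe sets 1 of 22 was called, that of Amn, against 12 of 45037 (0.0266%).

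The call of Amn was lost in limma without any 1 of animals 69, 73 and 81 of the txnrd1-/- mice or 70, 71 and 82 of the txnrd1 cond/+ mice, where its adjusted p lay between 0.0517 and 0.0968, and it held without animal 72 or animal 80. The log2 difference itself stayed between 1.37 and 1.6 over these 8 fits.

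In each genotype the liver lowest in Amn (animals 72 and 71) was also lowest in the hybridization controls, transcripts added to every sample. The liver highest in Amn (animals 73 and 80) was highest in them too. These controls are bacterial sequences and Cre, which the albCre transgene also encodes. The part of the transgene in their signal was not tested. The mean log2 ratio of these controls was -0.52 in animal 72 and 0.46 in animal 73 (txnrd1-/-), and -0.59 in animal 71 and 0.38 in animal 80 (txnrd1 cond/+). Tcn2, Cd320, Mmaa and Mmachc, 4 of the other 9 genes, were lowest in the same livers, and Cd320, Mmachc and Mtrr, 3 of the 9, were highest in the same livers as Amn. For Cd320 this holds for the gene value, which averages 2 probe sets that disagree. The share of all genes with these extremes is not given here, so nothing is read from these counts. With the hybridization controls as a covariate the log2 difference of Amn was 1.45. The differences of the other 9 genes then lay between -0.18 and 0.12, and 0 of them had an unadjusted p within 0.05 in limma.

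Markers of other cell types were read beside Amn. Amnionless and cubilin are best known from absorptive cells of intestine and kidney. Of 9 markers of such cells (Lrp2, Slc34a1, Vil1, Fabp2, Slc5a1, Slc5a2, Cdhr2, Mep1a and Mep1b), 0 were called and 0 had an unadjusted p within 0.05 in limma. Over all genes 0.0824% were called and 2.32% had such a p, so 0 in a list this short is near the share of all genes. The summed ratio of the 9 markers ranged from 8.24 to 9.53 in txnrd1-/- livers and from 7.71 to 10.7 in txnrd1 cond/+ livers. Their median log2 difference was -0.059. For 5 markers of bile duct cells the sum was 4.55 to 5.56 in txnrd1-/- livers and 4.46 to 5.22 in txnrd1 cond/+ livers, again with 0 called and 0 at that unadjusted p. For 8 hepatocyte markers it was 6.85 to 8.77 in txnrd1-/- livers and 7.73 to 9.18 in txnrd1 cond/+ livers, with 0 called and 0 at that p. Ratios cannot show which of the markers were at background, and the part of other cell types in the Amn difference was not tested.

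The genes around the B12 genes were read to see whether their neighbours moved with them. Rcor1 and Cdc42bpb, the nearest measured coding genes on each side of Amn, had log2 differences of 0.1 (interval -0.23 to 0.44) and -0.06 (interval -0.25 to 0.14). Over the 20 neighbours of the 10 genes the differences lay between -0.3 and 0.36, and 0 were called in limma, against 0.0824% of all genes. Not all 20 adjoin the gene, since genes without a probe set of their own can lie between. Rcor1 lay 155194 bases from Amn and Cdc42bpb 16546 bases from it. The farthest of the 20, Ptchd4, lay 1353861 bases from Mmut. Akr1a1, an aldehyde reductase near Mmachc, was the 1 of the 20 with an unadjusted p within 0.05, a level met by 2.32% of all genes, with 1.15, 1.07, 1.07 and 1.33 in txnrd1-/- livers and 0.928, 0.92, 0.87 and 0.87 in txnrd1 cond/+ livers (log2 difference 0.36, unadjusted p = 0.00655 and adjusted p = 1.0 in limma). Mvk, the mevalonate kinase gene, starts beside Mmab on the other strand and was at the low end, with 0.885 ± 0.199 in txnrd1-/- livers and 1.1 ± 0.274 in txnrd1 cond/+ livers (SD, n = 4 each; log2 difference -0.3, interval -0.79 to 0.18).

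A wider list took in 23 further measured genes of B12 handling and of the 2 reactions that need it. In limma 0 of the 23 were called, against 0.0824% of all genes, and 2 had an unadjusted p within 0.05, against 2.32%. The log2 differences lay between -0.15 and 0.43 with a median of 0.008, and all 23 were within 1.5-fold.

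The 2 genes were Asgr1 and Asgr2, which encode the subunits of the asialoglycoprotein receptor, through which hepatocytes clear desialylated glycoproteins, among them the B12 binder haptocorrin. Asgr2 had 1.18, 1.17, 1.08 and 1.19 in txnrd1-/- livers and 0.914, 0.841, 0.787 and 0.889 in txnrd1 cond/+ livers. All 4 txnrd1-/- livers were higher, by 0.43 on the log2 scale (interval 0.22 to 0.64; unadjusted p = 0.00116 and adjusted p = 0.505 in limma), or 1.35-fold. Asgr1 had 1.07, 1.02, 1.13 and 1.15 in txnrd1-/- livers and 0.946, 0.904, 0.981 and 0.748 in txnrd1 cond/+ livers, a log2 difference of 0.29 (interval 0.04 to 0.54; unadjusted p = 0.0255 and adjusted p = 1.0 in limma). Both subunits were without overlap between the genotypes, as were 1.71% of all genes, and neither passed the adjusted threshold.

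The remaining genes of the wider list gave small differences with intervals that included 0. On the uptake side, Cblif, which encodes intrinsic factor, stood at 0.06, Lrp2, which encodes the endocytic partner megalin, at 0.09, Dab2, an endocytic adaptor, at -0.09, and Lrpap1, a chaperone of megalin, at -0.15. Export of the vitamin from lysosomes depends on Lmbrd1 and Abcd4, which were at 0.02 and -0.08. Mmadhc, which directs cobalamin to the cytosolic or the mitochondrial enzyme, was at 0.01, and Abcc1, an exporter that also carries cobalamin out of cells, at -0.01. Hcfc1 and Thap11, which control transcription of Mmachc, were at -0.0042 and -0.01.

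In the propionate branch, which feeds the mutase, the carboxylase subunits Pcca and Pccb were at -0.04 and -0.15 and the epimerase Mcee at 0.07. The succinyl-CoA ligase subunits downstream, Suclg2, Suclg1 and Sucla2, were at 0.22 (interval -0.05 to 0.48), 0.14 and 0.07, and Acsf3, which activates malonate and methylmalonate, at -0.05. In the methionine branch Bhmt and Bhmt2, whose enzymes make methionine without B12, were at 0.1 and -0.14, Mat1a, which makes S-adenosylmethionine, at -0.12 and Ahcy, which hydrolyses S-adenosylhomocysteine, at 0.03.

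**Figure D3:**
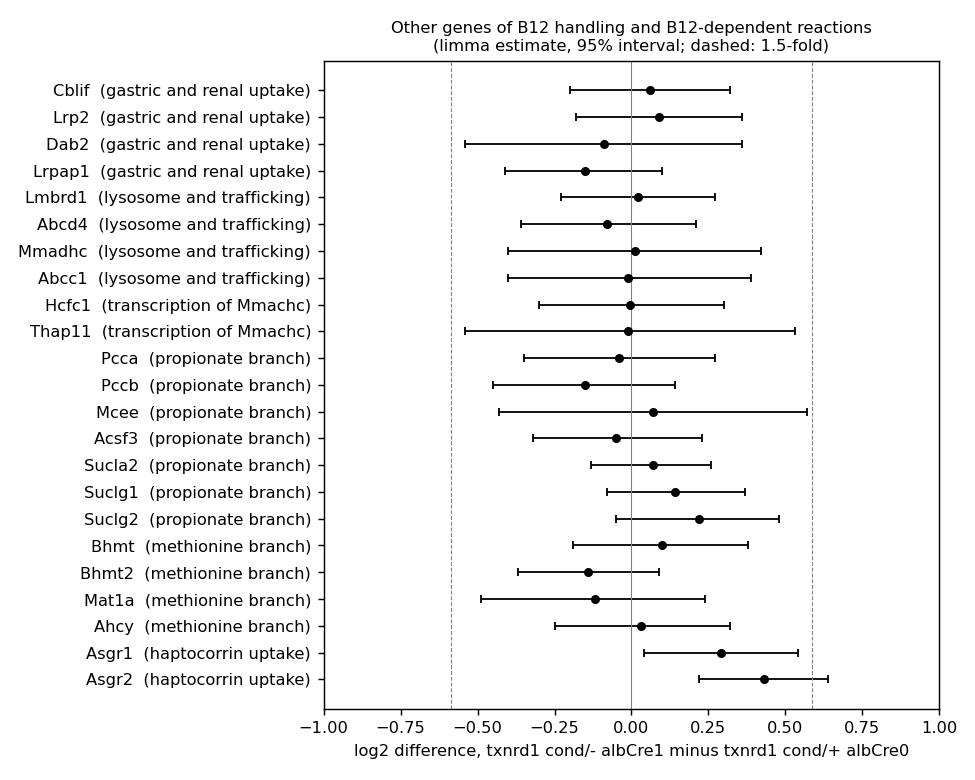
Log2 difference, txnrd1 cond/- albCre1 minus txnrd1 cond/+ albCre0, of the 23 further genes of B12 handling (horizontal axis), with their role in brackets, as limma estimates with 95% intervals over 4 livers of each genotype. Dashed lines mark 1.5-fold. The intervals of Asgr1 and Asgr2 lie above 0 and those of the other 21 genes include 0.

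The genes most like Amn were found by the Pearson correlation of log2 ratios over the 8 livers among 18191 other genes. This is a description, because Amn was chosen for its difference between the genotypes and any gene that separates them scores high. Above 0.9 were 20 genes (0.11%). The closest was Nqo1, a quinone reductase and textbook Nrf2 target (r = 0.971), with 1.6, 1.57, 2.72 and 1.73 in txnrd1-/- livers and 0.376, 0.253, 0.431 and 0.228 in txnrd1 cond/+ livers. In both genes animal 73 was the highest of the txnrd1-/- livers, animal 72 the lowest of them, and animal 80 the highest of the controls. In Nqo1 animal 72 was close to animal 69, at 1.57 and 1.6. The lowest control differed, animal 71 for Amn and animal 82 for Nqo1. Animals 73, 72 and 80 were also extremes of their genotypes in the hybridization controls.

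Next came Cbr3, a carbonyl reductase (r = 0.967, 51.7-fold), Arhgef16, an exchange factor for small GTPases (r = 0.945, 1.49-fold), Abcc4, an exporter of organic anions (r = 0.94, 13.2-fold), Pigv, a mannosyltransferase of GPI anchor synthesis (r = 0.933, 1.14-fold), and Cbr1, another carbonyl reductase (r = 0.932, 2.24-fold), with folds given as txnrd1-/- over txnrd1 cond/+. In size Amn, at 2.74-fold, lay between Cbr1 and Nqo1 (5.97-fold). Gsta2, a glutathione S-transferase of the study's main response, had r = 0.926 and was 14.3-fold higher. Of the other B12 genes the nearest, Mmut, was 499th (r = 0.67), Tcn2 was 2766th (r = 0.4), Cubn 8806th (r = 0.023) and Mtr, at r = -0.432, 16270th.

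The order changed when each genotype's mean was first subtracted, so that only the spread among livers of 1 genotype was left. With Amn over the 8 livers r was then 0.926 for Mmachc, 0.91 for Mtrr, 0.881 for Cd320, 0.778 for Mmaa, 0.595 for Tcn2, 0.09 for Mmut, 0.039 for Mmab, -0.245 for Mtr and -0.601 for Cubn. Among the genes above it was 0.954 for Pigv, 0.789 for Arhgef16, 0.635 for Nqo1, 0.615 for Cbr1, 0.515 for Cbr3, 0.33 for Abcc4 and -0.418 for Gsta2. Above 0.9 were 348 of 18191 genes (1.91%), Mmachc and Mtrr among them. The value used for Cd320 averages 2 probe sets that disagree, with a correlation of -0.67 to each other over the 8 livers. These livers also share the order of the hybridization controls given above, whose part in these correlations was not tested.

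**Figure D4:**
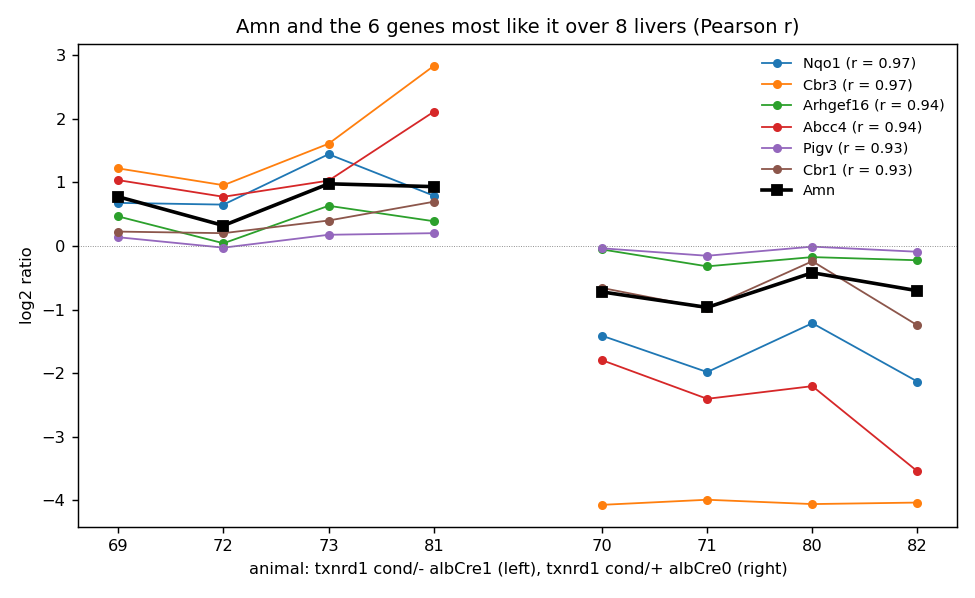
Log2 ratio (vertical axis) of Amn in black and of the 6 genes with the highest Pearson correlation to it over 8 livers, for each animal (horizontal axis), with txnrd1 cond/- albCre1 on the left and txnrd1 cond/+ albCre0 on the right. Lines join the values of 1 gene and imply no order among animals. All 7 genes are higher on the left on average, from 1.14-fold in Pigv to 51.7-fold in Cbr3, with Amn at 2.74-fold.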

How the data were processed

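Liver RNA of 8 mice, 4 of each genotype, was hybridized to 8 arrays. The values that the authors deposited are linear ratios, each relative to about the probe set's own median across arrays. The methods name GeneSpring and the submitters' processing notes name RMA, with no version given in the sources used here. The file lists 45101 probe sets, of which 64 array controls were left out. Platform annotation gave 34945 of the 45037 tested probe sets 1 symbol, 932 several and 9160 none, and current symbols, neighbours and promoters were taken from RefSeq (GRCm38.p6). There were 5 empty values, which were left empty.

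Log2 ratios, averaged over the probe sets with 1 symbol of a gene, were compared between genotypes by a 2-sided limma fit (version 3.58.1, lmFit and eBayes) in R 4.3.3, with Benjamini-Hochberg adjustment over 18193 genes, and again over the 45037 probe sets. Genes with an adjusted p up to 0.05 and a difference of 1.5-fold or more were called. A fold compares geometric means, while each mean ± SD was taken over linear ratios. Ratios allow no signal filter, and precision is limited by the number of arrays.

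Members and lists were chosen with earlier results of these data known. Genes named are the 10 members, the wider list, the nearest measured coding gene on each side of a member, the 6 genes most correlated with Amn, Nqo1, Gsta2 and Txnrd1. Markers of 6 cell types were summed as ratios. Alternatives were centred or quantile-normalized arrays, log2(ratio + 0.1), robust and weighted fits, each gene alone, the animal number range as a covariate, 1 probe set per gene, a filter on the SD, and leaving out each animal. The hybridization controls as a covariate were added after seeing the data. The code was tested on simulated data. Plots were made in Python 3.11.15 (matplotlib 3.10.9).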

Additional observations from a re-analysis of the deposited data

How the results depend on the processing

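The log2 difference of Amn kept its direction under all 10 other settings and in all 8 fits that left out 1 animal, between 1.32 with log2(ratio + 0.1) and 1.61 after quantile normalization. Over those 10 settings its adjusted p ranged from 0.000195 (limma among genes above the median SD) to 0.449 (each gene alone with equal variances). The number of B12 genes called was therefore 1 with 8 of the other settings and 0 under quantile normalization (adjusted p of Amn 0.0559) and with each gene alone, and 0 to 1 when an animal was left out. Over all genes 15 were called, against 8 with the animal number range as a covariate, 41 among genes above the median SD, 1 with each gene alone and 4 to 13 when an animal was left out. The SD of that filter was taken over the livers of both genotypes, so a gene can pass it through its genotype difference. Nothing is therefore read from the adjusted p of Amn or the 41 calls under that filter. The cause of the other changes in count was not tested. At 1.5-fold and an unadjusted p of at most 0.05, without the study's minimum signal, Amn was the 1 B12 gene to pass in every setting run, and 0 genes of the wider list passed or were called in any of them, where the filter on the SD tested only part of the list. With the most variable probe set in place of the mean, Cubn stood at -0.12, Mmut at 0.24 and Tcn2 at 0.24 on the log2 scale, and of the 9 genes other than Amn 0 had an unadjusted p within 0.05 in any setting that tested them (4 of the 9 in the filter on the SD, all 9 in the others).

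No paired analysis was possible because the number in each label is the number of 1 animal and occurs in 1 genotype only. Ratios give no signal over background, so how far a dim probe set limits any of these values could not be judged.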

Other observations

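Markers of the remaining liver cell types are given here as values. In limma 0 of 5 Kupffer cell, 0 of 5 endothelial cell and 0 of 5 stellate cell markers were called, against 0.0824% of all genes. In each list 0 had an unadjusted p within 0.05, against 2.32% of all genes, as with each list above. Median log2 differences were 0.062, -0.092 and -0.136 in that order of lists. The summed ratio of the Kupffer cell markers was 4.11 to 5.7 in txnrd1-/- livers and 4.12 to 6.28 in txnrd1 cond/+ livers. That of the endothelial markers was 3.99 to 5.49 in txnrd1-/- livers and 4.52 to 6.53 in txnrd1 cond/+ livers. That of the stellate cell markers was 4.06 to 5.69 in txnrd1-/- livers and 4.63 to 5.79 in txnrd1 cond/+ livers.

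RNA integrity, read as the log2 difference between 3′ and 5′ probe sets of Gapdh relative to each probe set's own median, lay between -0.1 and 0.1 in txnrd1-/- livers and between -0.04 and 0.13 in txnrd1 cond/+ livers. The same difference for actin lay between -0.23 and 0.09 in txnrd1-/- livers and between -0.17 and 0.05 in txnrd1 cond/+ livers. The spread of log2 ratios over all probe sets of an array (SD) was 0.194 to 0.35 in txnrd1-/- livers and 0.235 to 0.384 in txnrd1 cond/+ livers. Animal 82 (txnrd1 cond/+), with the largest spread, was also the control with the lowest Mmab, Mmut, Mtr and Mtrr. It was the highest control in Cubn, and animal 71 was the lowest control in Amn, Tcn2, Cd320, Mmaa and Mmachc. The share of all genes lowest in animal 82 is not given here, so nothing is read from this.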
